A study of Homo sapiens with 9 samples.

Results

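The genes described here encode the proteins of the cytosolic and the mitochondrial ribosome. They were taken by symbol, as RPL or RPS and MRPL or MRPS followed by a number and at most 1 further letter (A, X, Y or L), with RPLP0, RPLP1, RPLP2 and RPSA added. Of 14812 genes measured, 119 fitted: 47 cytosolic genes (29 of the large and 18 of the small subunit) and 72 mitochondrial genes (48 large and 24 small). A further 37 genes of the reference table, 34 cytosolic and 3 mitochondrial, fitted the symbols but had no row with a gene name in the table used. Among them were RPLP0, RPLP1, RPLP2, RPL5, RPSA and MRPL12, and none of the 37 was analysed here. The cytosolic class is therefore covered less fully than the mitochondrial class. No filter on low values was applied, so all 119 were tested.

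The cells were WM266-4, an established line grown from a human melanoma metastasis, in a GFP-carrying form that all groups share. Lipofection delivered miR-199a-3p, as a mimic, at 0.5 nM (n = 3) or at 0.25 nM (n = 3), and the third group received a control microRNA at 0.5 nM (n = 3). RNA was collected after 48 h in every group. The 0.25 nM mimic therefore has no control of its own dose, all groups come from 1 cell line, and the labels call the replicates biological without saying whether the cultures were separate, so p-values measure only the spread between these samples. Of the markers listed for a check of identity, 7 melanocytic genes had mean log2 intensities of 8.16 to 12.76 over the 9 arrays, while 5 keratinocyte genes lay between 3.31 and 5.10 and 2 fibroblast genes between 2.66 and 5.70. The immune marker LYZ lay at 3.22, and CD68, which is a lysosomal protein of macrophages and of other cells too, at 9.64. In limma on the spread of arrays within groups, 63.3% of all genes passed an adjusted p of 0.05 at 0.5 nM against control, and 64.2% at 0.25 nM. Of the 7 melanocytic genes 2 were lower and 2 higher at 0.5 nM, and 3 lower and 2 higher at 0.25 nM. Of the 5 keratinocyte genes 4 were lower and 1 higher at 0.5 nM, and 2 lower and 3 higher at 0.25 nM. Both fibroblast genes were higher at both doses, and of the 2 immune genes 1 was higher and 1 lower at each dose. The widest differences from control on the log2 scale were those of KRT10 (-0.40 at 0.5 nM and -1.04 at 0.25 nM), KRT1 (-0.69 and 0.38), CD68 (-0.37 and -0.58), THY1 (0.53 and 0.49) and DSG3 (-0.50 and 0.22). CD68 and KRT10 did not pass in limma with groups as units (adjusted p = 0.217 and 0.689). Their part in the results below was not tested.

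Cytosolic ribosomes translate nearly all messenger RNAs of a cell. Many of the messenger RNAs for their proteins begin with a C and a run of pyrimidines, the 5′ terminal oligopyrimidine or TOP tract, through which the kinase MTOR sets how much of them is translated. Mitochondrial ribosomes translate only the messenger RNAs made inside mitochondria, which encode subunits of the respiratory chain, and their proteins are encoded in the nucleus and imported. A microRNA pairs through its seed, bases 2 to 8, mostly with sites in 3′ untranslated regions, and lowers the stability or translation of those messenger RNAs.

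The mature microRNA of the mimic is shown because its seed defines what it can pair with. RefSeq places the same mature sequence on the minus strand of 2 genes in GRCh38.p14, MIR199A2 at chr1:172144554-172144575 and MIR199A1 at chr19:10817429-10817450. Capitals mark the seed.
hsa-miR-199a-3p: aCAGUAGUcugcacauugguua

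The start regions of 6 members per class are shown because the start of the transcript is where the 2 classes differ in sequence. The members are those with large differences from control in either direction. Each run holds 40 bases before and 20 bases after the RefSeq start (GRCh38.p14), read along the gene's strand. Capitals mark CTTT on the sense strand within 15 bases of the start, a short form of a TOP tract that misses other pyrimidine runs. They also mark CCGGAAG or its complement, the core bound by ETS factors such as GABP.
RPL9 (chr4:39458903-39458962, minus strand): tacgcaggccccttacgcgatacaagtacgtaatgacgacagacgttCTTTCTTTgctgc
RPL6 (chr12:112411423-112411482, minus strand): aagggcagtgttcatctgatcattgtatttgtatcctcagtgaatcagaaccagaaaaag
RPS24 (chr10:78033823-78033882, plus strand): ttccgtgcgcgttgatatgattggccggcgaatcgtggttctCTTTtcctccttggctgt
RPS9 (chr19:54200818-54200877, plus strand): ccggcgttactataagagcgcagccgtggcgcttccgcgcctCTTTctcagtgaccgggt
RPL10L (chr14:46651762-46651821, minus strand): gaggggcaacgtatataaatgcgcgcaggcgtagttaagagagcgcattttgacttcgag
RPL35A (chr3:197950150-197950209, plus strand): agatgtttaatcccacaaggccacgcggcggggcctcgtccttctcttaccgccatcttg
MRPL20 (chr1:1407274-1407333, minus strand): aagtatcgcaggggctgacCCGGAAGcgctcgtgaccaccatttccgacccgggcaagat
MRPL28 (chr16:370519-370578, minus strand): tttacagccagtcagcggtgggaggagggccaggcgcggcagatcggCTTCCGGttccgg
MRPL4 (chr19:10251911-10251970, plus strand): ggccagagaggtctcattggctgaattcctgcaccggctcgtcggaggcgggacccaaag
MRPL43 (chr10:100987478-100987537, minus strand): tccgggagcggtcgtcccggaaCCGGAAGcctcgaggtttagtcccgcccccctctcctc
MRPL19 (chr2:75646743-75646802, plus strand): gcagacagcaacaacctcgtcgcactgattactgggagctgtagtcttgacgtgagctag
MRPL11 (chr11:66438829-66438888, minus strand): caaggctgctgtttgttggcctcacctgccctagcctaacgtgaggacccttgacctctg

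RefSeq start regions matched 106 of the 119 members, 42 cytosolic and 64 mitochondrial. CTTT near the start stood in 61.9% of cytosolic members and 6.25% of mitochondrial members, against 12.1% of all 27305 start regions. The ETS core CCGGAAG was searched on both strands from 250 bases before to 50 bases after the start. It stood in 28.6% of cytosolic and 43.8% of mitochondrial members, against 10.7% of all regions. The YY1 core AAGATGG, searched likewise, stood in 11.9% of cytosolic and 32.8% of mitochondrial members, against 6.06% of all regions. The ETS core ends in the letters that open the YY1 core, so 1 run of bases can hold both. TGCGCA, the core of NRF1 sites and its own complement, stood in 16.7% and 15.6%, against 8.42% of all regions. A match of letters is not a bound site.

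Values are log2 array intensities, each array shifted to a common median, and a difference of 1 is a doubling. Intensities of different probe sets do not rank transcripts. Many cytosolic ribosomal protein genes have near-identical processed pseudogenes, so the gene behind a signal is uncertain where probes are shared. Exactly equal deposited values on all 3 arrays of a group were found for 46.6%, 40.6% and 47.2% of genes at 0.5 nM, at 0.25 nM and in control. For cytosolic members this held for 11, 10 and 8 genes in the same order of groups, and for mitochondrial members for 30, 23 and 27 genes. No value was equal between groups. The spread within a group thus understates the error: in limma with a mean per group, 63.3% of all genes passed an adjusted p of 0.05 at 0.5 nM against control, and 64.2% at 0.25 nM. Counts from that within-group test are therefore read only against the share of all genes that passed. A second limma test took each group mean as 1 unit, set both doses together against control and drew most of its error from genes of similar level. In it 19 genes passed, 0.128% of those tested (0.027% higher and 0.101% lower), and none was a ribosomal protein gene. At an unadjusted p under 0.05 it held 1 cytosolic and 8 mitochondrial members, against 6.56% of all genes. These were RPL9, MRPL19, MRPL20, MRPL28, MRPL4, MRPL43, MRPL47, MRPS25 and MRPS28.

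Most members gave bright signals. The mean log2 intensity over the 3 groups ran from 4.06 to 13.01 for cytosolic members, with a median of 7.89, and from 5.50 to 11.26 for mitochondrial members, with a median of 8.29. It was above the all-gene median of 6.25 for 44 of 47 and 70 of 72 members, and above the 95th percentile of 9.84 for 12 and 9. In control, the 5 brightest cytosolic members were RPS28, RPS15, RPL12, RPS27 and RPL41, and the 5 dimmest RPL10L, RPL3L, RPL37A, RPL22 and RPL39L, so that 3 of the dimmest were paralogs with restricted expression. The array rows of RPS28 and RPS27 are numbered among those of members on chromosomes 11 and 12, while the genes lie on chromosomes 19 and 1. The gene behind their signals is therefore uncertain. The 5 brightest mitochondrial members were MRPS15, MRPS21, MRPL37, MRPL34 and MRPL3, and the 5 dimmest MRPL22, MRPL23, MRPL52, MRPL32 and MRPS27. Among the brightest, RPS28 had -0.06 at 0.5 nM and -0.19 at 0.25 nM, RPS15 -0.21 and -0.17, MRPS15 0.04 and -0.10 and MRPS21 -0.10 and 0.12. At 0.5 nM RPS28 turned to 0.02 without control replicate 1 and MRPS15 to -0.01 without 0.5 nM replicate 1.

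Cytosolic ribosomal protein genes lay lower with the mimic than with the control microRNA in most cases. At 0.5 nM 38 of 47 had a lower mean than control, with a median difference of -0.14 over the 47 genes, beside 0.01 over all genes and -0.02 over genes above the median level. At 0.25 nM 33 of 47 lay lower, with a median of -0.10, beside -0.02 over all genes and -0.04 over genes above the median level. In the within-group limma test 25 cytosolic members were lower and 1 was higher at 0.5 nM, where 30.1% of all genes were lower and 33.2% higher. With the replicate number as a block 3 were higher, where 34.3% of all genes were. At 0.25 nM 15 were lower and 6 higher, where 33.9% of all genes were lower and 30.3% higher. Arrays at 0.5 nM lay wholly below the control arrays for 27 cytosolic members and wholly above them for 3, where 35% of all genes lay below and 39.2% above. At 0.25 nM they lay below for 17 and above for 8, where 39.3% lay below and 35.1% above. The small subunit had medians of -0.17 at 0.5 nM and -0.12 at 0.25 nM, and the large subunit -0.13 and -0.07. The shifted values are relative to the other genes of an array and do not measure cell number or total RNA per cell. Whether all cells of a culture or only some of them had less of these messenger RNAs cannot be told apart.

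The direction of these medians depended on the shift of the arrays. With the values as deposited the median of all genes was 0.10 above control at 0.5 nM and 0.14 above it at 0.25 nM. On that scale the cytosolic median was -0.05 at 0.5 nM, with 14 members lower and 5 higher, beside 2973 genes lower and 6665 higher over the whole table. At 0.25 nM it was 0.05, with 4 members lower and 16 higher, beside 2529 genes lower and 7517 higher. The cytosolic median therefore lay below that of all genes on both scales, but at 0.25 nM it was not below control in the values as deposited. Without replicate 1 of the 0.25 nM group the shifted median at that dose was -0.04, and without replicate 2 of the control group it was -0.06.

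**Figure D1:**
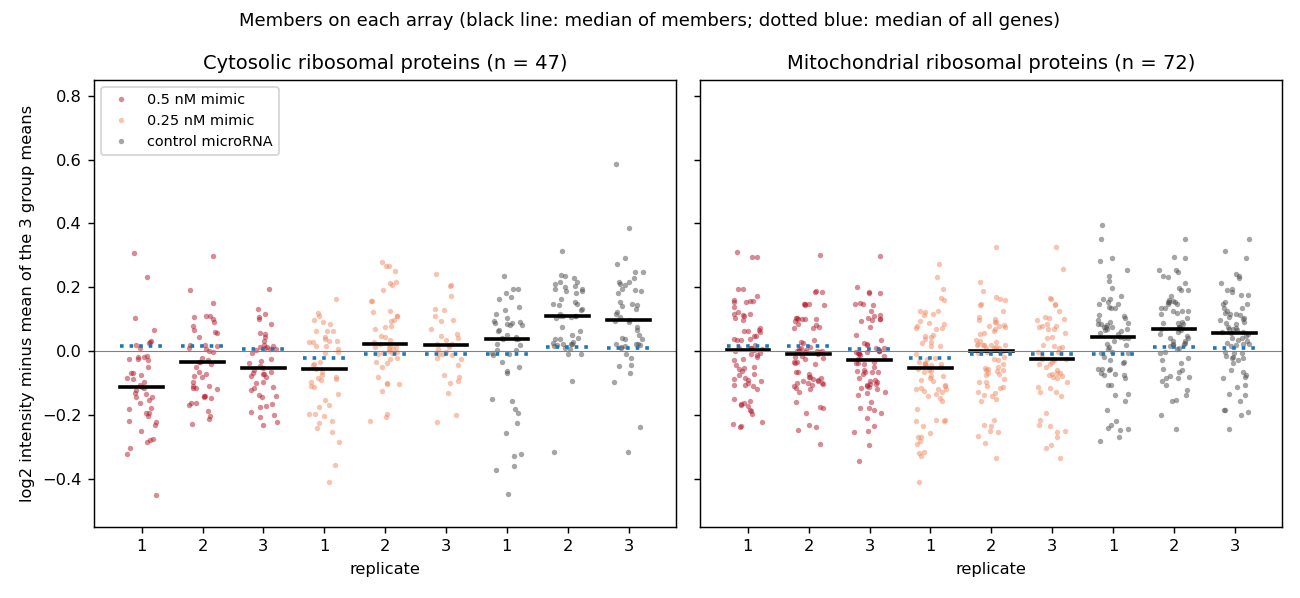
Each point is 1 gene on 1 array, as its log2 intensity minus the mean of its 3 group means, with 47 cytosolic genes on the left and 72 mitochondrial genes on the right. Black lines are medians of the members and dotted lines medians of all genes. The cytosolic medians run at -0.11, -0.04 and -0.05 on the 0.5 nM arrays, -0.06, 0.02 and 0.02 on the 0.25 nM arrays and 0.04, 0.11 and 0.10 on the control arrays, and replicate 1 is the lowest in each group.

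Among large-subunit proteins, RPL9, part of the base of the factor-binding stalk, had log2 intensities of 7.55, 7.84 and 7.81 at 0.5 nM, of 7.52 and 7.98 at 0.25 nM, where the third value was left out as damaged, and of 7.96, 8.19 and 8.26 in control. The 0.5 nM arrays lay below all control arrays, while 1 of the 0.25 nM arrays overlapped them. The difference of both doses from control was -0.39 ± 0.16 (SE, limma with groups as units, adjusted p = 0.586), or 0.761-fold. In the within-group limma test RPL9 passed at neither dose (adjusted p = 0.059 at 0.5 nM and 0.093 at 0.25 nM), and its replicates were among the most widely spread of the cytosolic class. With the replicate number as a block, RPL9 passed at both doses, with -0.40 ± 0.06 (SE, limma, adjusted p = 0.00426) at 0.5 nM and -0.34 ± 0.06 (SE, limma, adjusted p = 0.00832) at 0.25 nM. With that block 31.4% of all genes were lower and 34.3% higher at 0.5 nM, and 36.1% lower and 31.3% higher at 0.25 nM. Whether the replicate numbers pair the samples was not settled.

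RPL6, a protein of the solvent side of the large subunit, had 7.20, 7.31 and 7.23 at 0.5 nM, 7.36, 7.48 and 7.49 at 0.25 nM and 7.65, 7.68 and 7.68 in control. The 3 groups did not overlap, and the higher dose was the lower one. The difference was -0.33 ± 0.17 (SE, limma with groups as units, adjusted p = 0.817). RPL24, which contacts the small subunit across the interface, had 8.70, 8.86 and 8.83 at 0.5 nM, 9.04, 9.02 and 9.02 at 0.25 nM and 9.11, 9.22 and 9.22 in control. Its groups did not overlap either, with differences from control of -0.39 at 0.5 nM and -0.15 at 0.25 nM. RPL11, which with RPL5 carries 5S ribosomal RNA and can bind MDM2, was nearly level at 0.5 nM (difference -0.05) and lay 0.22 log2 units below control at 0.25 nM (difference -0.22).

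Of the small subunit, RPS24, needed for maturation of 18S ribosomal RNA and mutated in Diamond-Blackfan anaemia, had 7.14, 7.13 and 7.13 at 0.5 nM, 6.91 and 6.89 at 0.25 nM with the third value left out, and 7.30 on all 3 control arrays. Here the lower dose gave the lower values. The difference of both doses from control was -0.29 ± 0.19 (SE, limma with groups as units, adjusted p = 0.89). RPS6, the substrate of the S6 kinases downstream of MTOR, had 8.13, 8.23 and 8.23 at 0.5 nM, 8.16 and 8.26 at 0.25 nM with the third value left out, and 8.42, 8.51 and 8.51 in control. The doses gave nearly the same level, with differences from control of -0.28 and -0.27. RPS9, which helps to hold the accuracy of decoding, had 6.56, 6.81 and 6.81 at 0.5 nM, 6.62, 6.85 and 6.82 at 0.25 nM and 6.93, 7.03 and 7.13 in control, so that every mimic array lay below every control array. RPS3, at the entry of the messenger RNA channel, lay lower by 0.37 at 0.5 nM (difference -0.37) and by 0.18 at 0.25 nM (difference -0.18). RPS7, another protein mutated in Diamond-Blackfan anaemia, had differences of -0.16 and -0.38.

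Few cytosolic members lay above control at both doses. RPL35A, also a Diamond-Blackfan gene, had 7.83, 7.99 and 7.98 at 0.5 nM, 7.79, 8.14 and 8.05 at 0.25 nM and 7.55, 7.78 and 7.78 in control. All mimic arrays lay above all control arrays, though replicate 1 at 0.25 nM lay only just above, and the difference was 0.26 ± 0.16 (SE, limma with groups as units, adjusted p = 0.874). RPS15A (0.07 at 0.5 nM and 0.25 at 0.25 nM) and RPL10A (0.19 and 0.02) were the other common members on this side among the 6 with the highest differences. Their signs turned without control replicate 1, to -0.06 for RPS15A at 0.5 nM and to -0.04 for RPL10A at 0.25 nM. The remaining 3 were paralogs with restricted expression. RPL10L, an intronless copy of RPL10 known from the testis, had 4.37, 4.36 and 4.09 at 0.5 nM, 4.17, 4.15 and 4.10 at 0.25 nM and 3.80, 3.74 and 3.74 in control. It was the dimmest of the 119 members, under the median of 6.25 over all genes, and its difference was 0.44 ± 0.34 (SE, limma with groups as units, adjusted p = 0.921). RPL39L, a testis and tumour paralog of RPL39, had differences of 0.10 and 0.17, and RPL3L, the skeletal muscle and heart paralog of RPL3, 0.10 and 0.03. Without control replicate 1 RPL39L was -0.02 at 0.5 nM, and without control replicate 3 RPL3L was -0.06 at 0.25 nM. The p53-induced paralog RPS27L had -0.14 at 0.5 nM and 0.15 at 0.25 nM.

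Start letters and direction can be set side by side for the 42 cytosolic members with a start region. Of the 26 with CTTT near the start, 25 had a mean over both doses below control, with medians of -0.16 at 0.5 nM and -0.11 at 0.25 nM. Of the 16 without it, 13 did, with medians of -0.13 and -0.10. Over all genes, 7650 of 14812 had a mean over both doses below control. RPL9, RPS24 and RPS9 among the sequences above carry the letters, and RPL6, RPL10L and RPL35A do not. RPL35A nevertheless has a C and a run of pyrimidines at its RefSeq start. The letters thus do not divide TOP messenger RNAs from others.

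**Figure D2:**
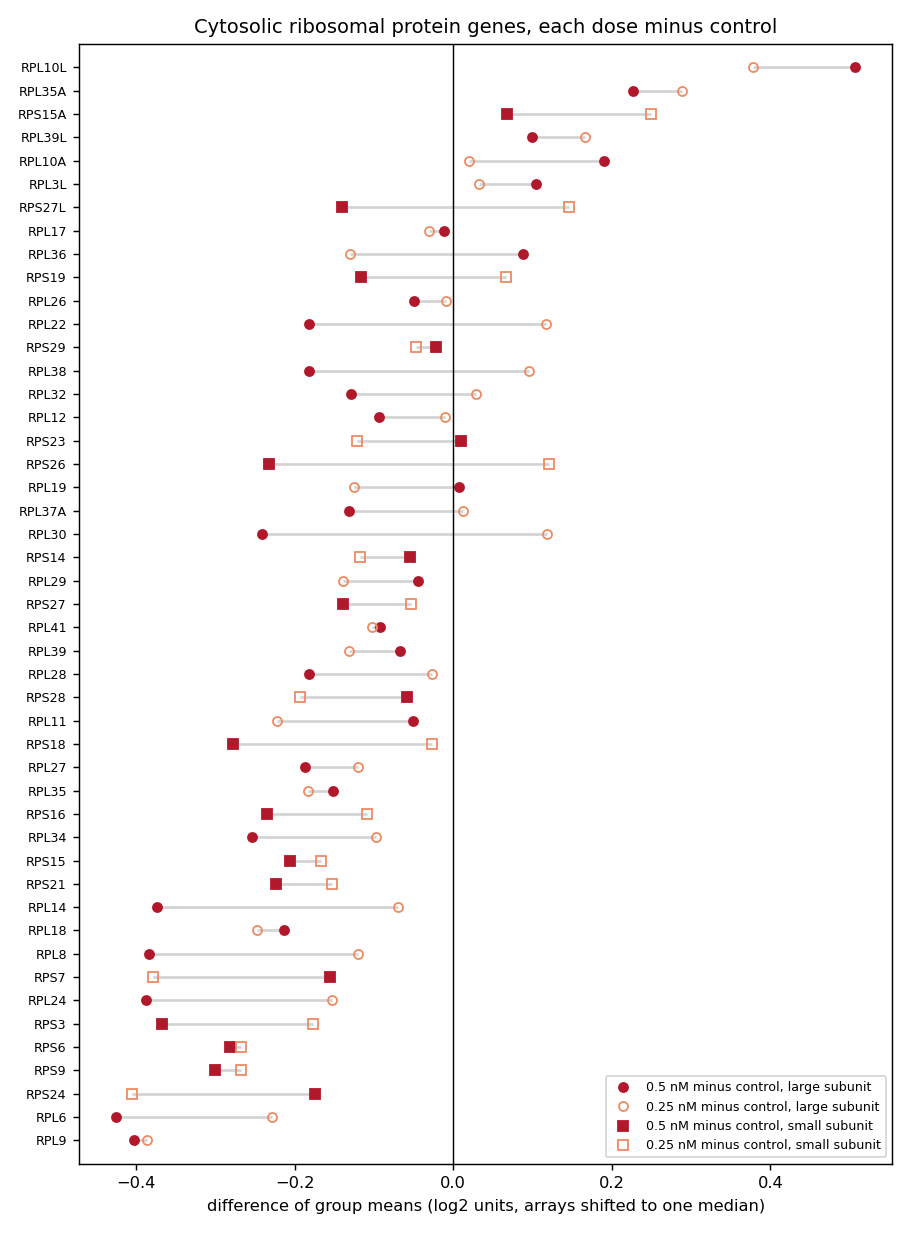
Each line is 1 of the 47 cytosolic genes, ordered by the mean of both doses, with the difference of group means from control in log2 units on the x axis. Filled symbols are 0.5 nM and open symbols 0.25 nM, circles are large-subunit and squares small-subunit genes. The points reach -0.42 for RPL6 at 0.5 nM and 0.51 for RPL10L at 0.5 nM, and 40 of 47 genes have a mean over both doses below 0.

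**Figure D3:**
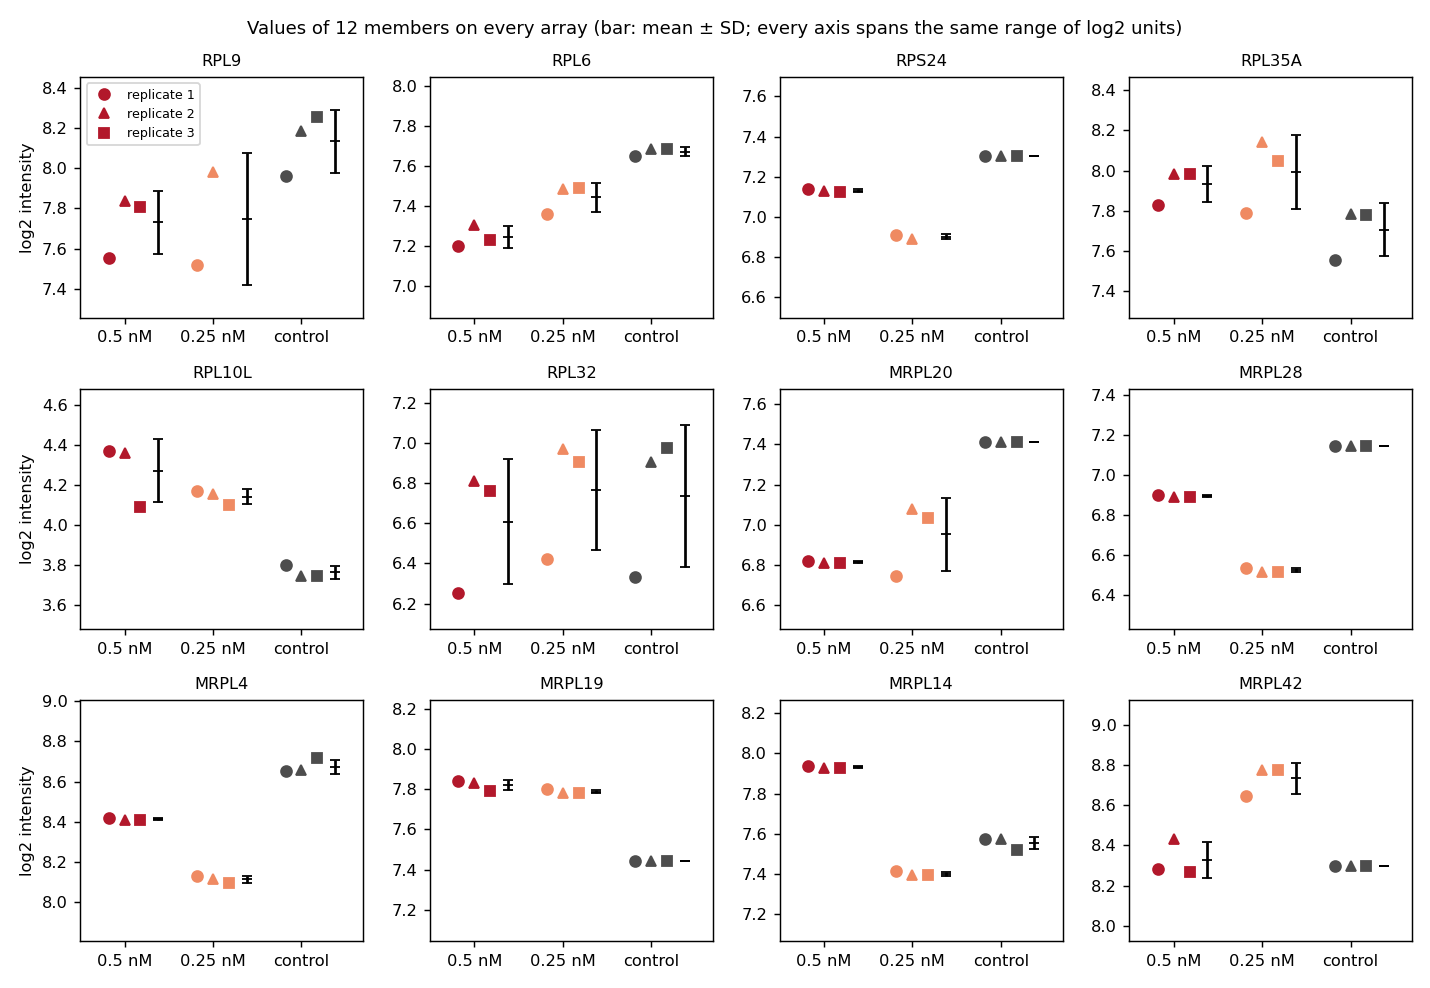
Log2 intensity of 12 members on every array, with replicates 1, 2 and 3 as circles, triangles and squares and bars for the mean ± SD of 3 arrays, or of 2 at 0.25 nM for RPL9 and RPS24, where replicate 3 was left out. MRPL20, MRPL28 and MRPL4 lie below control on every mimic array, MRPL19 above it, and RPL32 shows the gap of replicate 1 in every group.

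Several rows existed for 7 members, of which the brightest was used. The rows of RPL41, which encodes the smallest ribosomal protein, had the same direction: the row used had differences of -0.09 at 0.5 nM and -0.10 at 0.25 nM, and the 4 others lay between -0.35 and -0.20 at 0.5 nM and between -0.49 and -0.03 at 0.25 nM. RPL39 rows disagreed, with -0.07 in the row used and 0.58 in the other at 0.5 nM. RPL19 gave 0.01 in the row used and -0.26 in the other at 0.5 nM. MRPS16 gave 0.19 and -0.07 at the same dose, and for MRPL44 the other row was dim, at 2.64, and of opposite sign.

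Mitochondrial ribosomal protein genes differed from control in both directions. At 0.5 nM 43 of 72 lay below control, with a median of -0.06, and at 0.25 nM 49 of 72, with a median of -0.08. In the within-group limma test 27 were lower and 17 higher at 0.5 nM, that is 61.1% of them beside 63.3% of all genes, and 28 were lower and 15 higher at 0.25 nM, or 59.7% beside 64.2%. In both directions together these shares are near those of the whole table. By direction, 37.5% of mitochondrial members were lower and 23.6% higher at 0.5 nM, beside 30.1% and 33.2% of all genes, and 38.9% were lower and 20.8% higher at 0.25 nM, beside 33.9% and 30.3%. Arrays did not overlap with control for 34 members below and 21 above at 0.5 nM, and for 34 below and 18 above at 0.25 nM. That was 47.2% below and 29.2% above at 0.5 nM, beside 35% and 39.2% of all genes, and 47.2% below and 25% above at 0.25 nM, beside 39.3% and 35.1%. The small subunit had medians of -0.10 and -0.11, and the large subunit -0.03 and -0.05. With the values as deposited the mitochondrial medians were 0.03 and 0.08, above control but below the medians of all genes on that scale. The median at 0.5 nM was -0.04 without replicate 2 of the control group, and that at 0.25 nM was -0.04 without replicate 1 of the 0.25 nM group.

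On the mean of both doses, the largest difference from control among all 119 members was that of MRPL20, a protein of the mitochondrial large subunit. It had 6.82, 6.81 and 6.81 at 0.5 nM, 6.74, 7.08 and 7.03 at 0.25 nM and 7.41 on all 3 control arrays. Every mimic array lay below every control array, and the difference was -0.53 ± 0.19 (SE, limma with groups as units, adjusted p = 0.463), or 0.693-fold. MRPL28, first described as an antigen of melanoma cells, had 6.90, 6.89 and 6.89 at 0.5 nM, 6.54, 6.52 and 6.52 at 0.25 nM and 7.15 on all 3 control arrays, with a difference of -0.44 ± 0.20 (SE, adjusted p = 0.701 in the same limma test). MRPL4, whose bacterial counterpart lines the peptide tunnel, showed the same order of groups, with 8.42, 8.41 and 8.41 at 0.5 nM, 8.13, 8.11 and 8.10 at 0.25 nM and 8.65, 8.65 and 8.71 in control. For both genes the lower dose gave the lower level. MRPL43, found only in mitochondrial ribosomes, had 8.04, 8.03 and 8.03 at 0.5 nM, 8.03 and 8.02 at 0.25 nM with the third value left out, and 8.38 on all 3 control arrays, so that the doses were level with each other.

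In the small subunit MRPS28, a protein of the mitochondrial small subunit, had 7.56, 7.54 and 7.53 at 0.5 nM, 7.75, 7.73 and 7.71 at 0.25 nM and 8.18, 8.03 and 8.01 in control. The groups did not overlap, the difference was -0.44 ± 0.16 (SE, limma with groups as units, adjusted p = 0.506), and here the higher dose was the lower one. MRPS25 had differences of -0.28 at 0.5 nM and -0.32 at 0.25 nM, nearly level between the doses.

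On the other side stood large-subunit proteins. MRPL19 had 7.84, 7.83 and 7.79 at 0.5 nM, 7.80, 7.78 and 7.78 at 0.25 nM and 7.44 on all 3 control arrays, a difference of 0.36 ± 0.16 (SE, limma with groups as units, adjusted p = 0.666), or 1.29-fold. MRPL11, at the stalk base that binds translation factors, had 7.65, 7.64 and 7.64 at 0.5 nM, 7.88 and 7.87 at 0.25 nM with the third value left out, and 7.41, 7.45 and 7.45 in control. MRPL47 had 8.94, 9.01 and 9.01 at 0.5 nM, 8.95 and 8.93 at 0.25 nM with the third value left out, and 8.60, 8.75 and 8.68 in control. MRPL33 (0.15 at 0.5 nM and 0.30 at 0.25 nM) and MRPL40 (0.15 and 0.26) followed. For MRPL19, MRPL11 and MRPL47 no mimic array overlapped the control arrays. Over the class, both mimic groups lay apart from control for 13 mitochondrial members above it and 22 below it, where 22.6% and 22.5% of all genes did so. For the cytosolic class the counts were 2 above and 13 below.

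**Figure D4:**
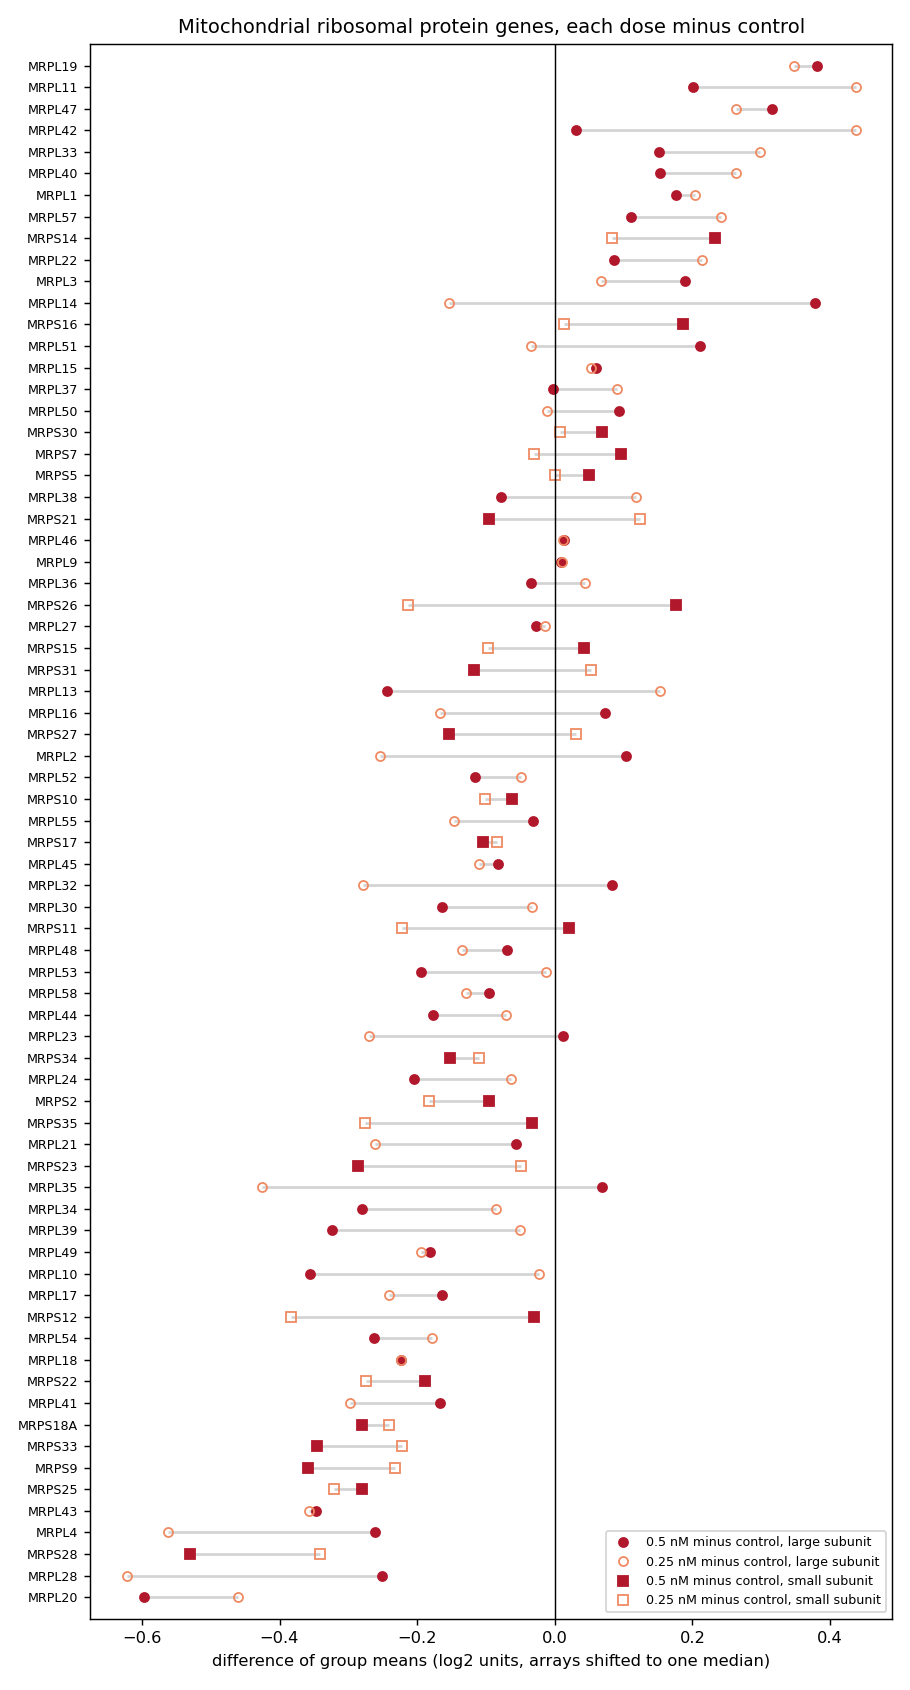
Each line is 1 of the 72 mitochondrial genes, ordered by the mean of both doses, with the difference of group means from control in log2 units on the x axis. Filled symbols are 0.5 nM and open symbols 0.25 nM, circles are large-subunit and squares small-subunit genes. The points run from -0.62 for MRPL28 at 0.25 nM to 0.44 for MRPL11 and MRPL42 at 0.25 nM, and 47 of 72 genes have a mean over both doses below 0.

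The doses also differed from each other. In the within-group limma test of 0.5 nM against 0.25 nM, 4 cytosolic members were higher at 0.5 nM and 18 lower, where 35% of all genes were higher and 27.2% lower. With the replicate block 8 were higher, where 36.9% of all genes were. Of mitochondrial members 20 were higher and 22 lower, and in either direction 62.2% of all genes passed. Arrays at 0.5 nM lay wholly above those at 0.25 nM for 7 cytosolic and 23 mitochondrial members and wholly below them for 20 and 22, where 40.6% of all genes lay above and 31.6% below. The median difference between doses was -0.06 over cytosolic members, 0.01 over mitochondrial members and 0.03 over all genes. The widest gap was that of MRPL14, which binds the factor MALSU1 during assembly, with 7.94, 7.93 and 7.93 at 0.5 nM, 7.41, 7.39 and 7.39 at 0.25 nM and 7.57, 7.57 and 7.52 in control. It thus lay above control at the higher dose and below it at the lower one. MRPL35 had 9.34, 9.33 and 9.33 at 0.5 nM, 8.73, 8.89 and 8.89 at 0.25 nM and 9.23, 9.28 and 9.28 in control. MRPL42 ran the other way, with 8.28, 8.43 and 8.27 at 0.5 nM, 8.65, 8.78 and 8.78 at 0.25 nM and 8.30 on all 3 control arrays. Only its 0.25 nM arrays stood apart. MRPS26 lay above control at 0.5 nM (difference 0.18) and below it at 0.25 nM (-0.21), while MRPL13 lay below it (-0.24) and above it (0.15), and MRPL10 differed from control mainly at 0.5 nM (-0.36, beside -0.02). Among cytosolic members the widest gaps were those of RPL30, which binds kink-turn RNA, with a difference between doses of -0.36, and of RPS26, a protein at the messenger RNA exit, with -0.35. RPS24, RPS7 and RPL36 lay on the other side, with 0.23, 0.22 and 0.22.

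Within groups, replicate 1 was the lowest for a larger share of cytosolic genes than of all genes. In the deposited values, 25 cytosolic members had replicates 1 and 2 that differed in every group, and in 21 of them (84%) replicate 1 was the lowest of its group in all 3 groups. Over all genes with such values this held for 46% of 2881, and over all genes tested for 8.95%. It held for 7 of 20 mitochondrial members (35%). Replicate 1 was the highest in all 3 groups for 2 cytosolic and 4 mitochondrial members, and for 3.76% of all genes, or 19.3% of those with such values. Of the large cytosolic subunit, 13 members had such values, and in all 13 replicate 1 was the lowest in every group. RPL32 had shifted intensities of 6.25, 6.81 and 6.76 at 0.5 nM, 6.42, 6.97 and 6.91 at 0.25 nM and 6.33, 6.90 and 6.98 in control for replicates 1, 2 and 3. Replicate 1 was the low one each time, by 0.56 on average (difference -0.56 in the deposited values), while the group means differed from control by -0.13 at 0.5 nM and 0.03 at 0.25 nM. These signs turned with 1 array left out, to 0.05 without 0.5 nM replicate 1 and to -0.17 without control replicate 1. RPS16 had 8.23, 8.52 and 8.45 at 0.5 nM, 8.28, 8.64 and 8.65 at 0.25 nM and 8.07, 8.72 and 9.10 in control, the widest spread of any member. Its difference of both doses from control was -0.17, and -0.45 without replicate 1 of the control group. Without replicate 3 of the control group its difference at 0.25 nM was 0.13, beside -0.11 with all arrays. RPS28, among the brightest members and with an uncertain gene behind its signal, ran against this. It had 13.25, 12.91 and 12.97 at 0.5 nM, 13.11, 12.82 and 12.79 at 0.25 nM and 13.25, 13.02 and 13.02 in control. MRPL21 also had its highest value in replicate 1 of each group, by 0.33 on average. The median gap of replicate 1 was -0.07 over cytosolic members, -0.01 over mitochondrial members and 0.00 over all genes, many of which have tied values. Over genes whose replicates 1 and 2 differed in every group it was -0.16, -0.07 and -0.10 in the same order. Replicate 1 was thus lower in the median of such genes over the whole table too. Limma on the 3 differences of the deposited values, added after the data were seen, passed no gene (0% of those tested) at an adjusted p of 0.05. At an unadjusted p under 0.05 it held 18 of 47 cytosolic and 6 of 72 mitochondrial members, beside 7.99% of all genes. With arrays shifted to one median, replicate 1 was higher for 7 genes and lower for 3 at an adjusted p of 0.05 (0.0473% and 0.0203%), and none was a member.

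**Figure D5:**
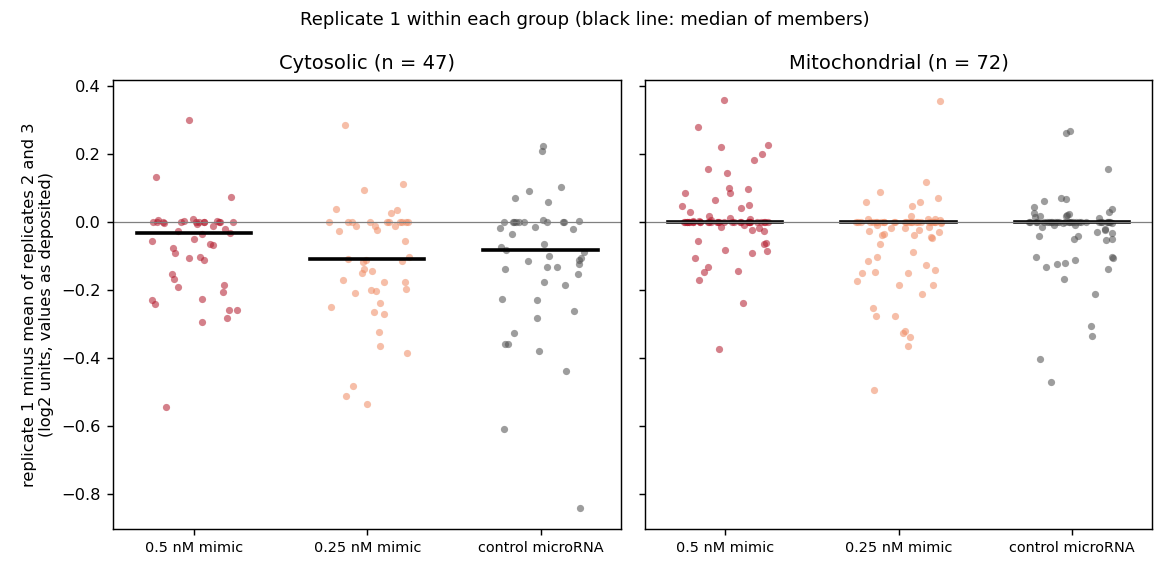
Each point is 1 gene in 1 group, as replicate 1 minus the mean of replicates 2 and 3 in log2 units of the deposited values, for 47 cytosolic and 72 mitochondrial genes, and black lines are medians of the members. The cytosolic medians lie below 0 in all 3 groups. The mitochondrial medians lie at about 0, where 30, 23 and 27 members tie on all 3 arrays at 0.5 nM, at 0.25 nM and in control.

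Genes that work with the ribosome were read from lists, beside 30.1% of all genes lower and 33.2% higher at 0.5 nM and 33.9% lower and 30.3% higher at 0.25 nM in the within-group limma test. Of 18 measured ribosome biogenesis factors, 2 were lower and 1 higher at 0.5 nM, and 2 lower and 2 higher at 0.25 nM, so 16.7% and 22.2% passed, beside 63.3% and 64.2% of all genes. Of 7 measured translation elongation and other TOP genes, 3 were lower and 2 higher at each dose, or 71.4% in all. The lower genes were EEF1A1, EEF1D and EEF1G at both doses. EEF1D, a subunit of the exchange factor for EEF1A1, had differences of -0.50 and -0.38. HNRNPA1 passed at neither dose in that test, and its replicate 1 was the lowest in every group. It is an RNA-binding protein with a TOP messenger RNA and had differences of -0.33 and -0.25. NAP1L1, a histone chaperone with such a messenger RNA, had 0.09 and 0.54, and EIF4B of the same list 0.19 and 0.16. Of 9 measured genes listed for MTOR signalling to TOP messenger RNAs, MYC among them, 1 was lower and 4 higher at 0.5 nM. At 0.25 nM 3 were lower and 2 higher, or 55.6% at each dose. MTOR itself had 0.01 at 0.5 nM and -0.40 at 0.25 nM, while TSC2, the brake on MTOR through RHEB, had -0.36 and -0.33. On the higher side of this list, MYC, which passed only at 0.5 nM, had 0.29 and 0.05, and EIF4EBP2 0.11 and 0.14. DEPTOR had the widest gap between doses of this list, with 0.35 at 0.5 nM and -0.30 at 0.25 nM. Of 15 measured mitochondrial translation and assembly factors, 7 were lower and 1 higher at 0.5 nM, and 6 lower and 1 higher at 0.25 nM, or 53.3% and 46.7% in all. ERAL1, a chaperone of the 12S ribosomal RNA, had -0.41 and -0.42, and MTIF2, a mitochondrial initiation factor, -0.26 and -0.24. MTG1 of the same list had 0.34 and -0.03. Of 5 measured cytosolic ribosomal proteins named outside the rule, 2 were lower at 0.5 nM and 3 at 0.25 nM, with none higher, and of 4 such mitochondrial proteins 1 was lower and 1 higher at 0.5 nM and 1 lower at 0.25 nM. In limma with groups as units, 0 genes of these lists passed, beside 0.128% of all genes. At an unadjusted p under 0.05 there was 1 elongation or TOP gene (HNRNPA1) and 1 mitochondrial translation factor (ERAL1), beside 6.56% of all genes.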

How the data were processed

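The deposited values are log2 intensities of 1 whole-transcript array per sample, made by the authors with oligo, affy and RMA per the submitters' processing notes, which give neither versions nor the order of steps. Of 44629 rows, 15835 carry exactly 1 gene symbol, 0 carry several and 28794 have no name here. Every gene ID of the 15835 was found in the reference gene table, and the brightest row was kept for 651 genes with several. In replicate 3 of the 0.25 nM group zeros after the decimal point had been lost: among 2695 rows whose replicates 1 and 2 tie with 0 as first decimal, 2351 (87.2%) match once the zeros are dropped. Values of fewer than 10 digits there were left out (2834 genes, 19.1%, with 14 cytosolic and 13 mitochondrial members).

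Arrays were shifted to one median and fitted in limma 3.58.1 (R 4.3.3), as a mean per group over 9 arrays. Tests were two-sided at 0.05, with p-values adjusted by Benjamini-Hochberg across 14812 genes. A limma test with an intensity trend was also fitted to the 3 group means (35.9 prior degrees of freedom). Precision rests on 3 arrays per group. The members, gene lists and tests were chosen with earlier results of these data known. Per class, the rule for named genes took the 5 brightest and 5 dimmest in control, the 6 highest and 6 lowest differences, the 3 widest gaps between doses in each direction, the 4 widest spreads, the 3 smallest p-values by group and the paralogs, and the other list genes with the largest changes. RPL39, RPL19, MRPS16 and MRPL44 were named after their values were seen.

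Replicates with the same number deviated together in every pair of groups (r of 0.136 to 0.589), least for replicate 3 (0.136 to 0.279). Each array correlated best with its own number in only 4 of 9 cases, so whether the numbers pair the samples was not settled. Alternatives were no shift, quantile normalization, short values kept, the mean over all rows of a gene, genes above the median level, a block for the replicate number, the intensity trend added or removed, and each array left out in turn.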

Additional observations from a re-analysis of the deposited data

Results flagged for a closer look

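Values differed between the groups at the 2 doses for 22 cytosolic and 42 mitochondrial members in the within-group limma test of 0.5 nM against 0.25 nM (adjusted p under 0.05). Over all genes 62.2% passed that test, so the counts of 46.8% and 58.3% of members lie below the share of the whole table. The difference between doses cannot be tested with groups as units, since that test takes its error from it.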

How the results depend on the processing

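Limma with groups as units passed 0 members in all 15 alternatives, and the smallest adjusted p of any member lay between 0.256 and 0.873. At an unadjusted p under 0.05 the fit used above held 1 cytosolic and 8 mitochondrial members, against 6.56% of all genes. Without the shift of arrays, cytosolic members were higher in 5 and lower in 14 cases at 0.5 nM, and higher in 16 and lower in 4 at 0.25 nM, while mitochondrial members were higher in 27 and lower in 15 at 0.25 nM. Of all genes 45% were then higher and 20.1% lower at 0.5 nM, and 50.7% higher and 17.1% lower at 0.25 nM. The cytosolic medians were then -0.0507 at 0.5 nM, 0.0516 at 0.25 nM, -0.129 between doses and 0.0271 for both doses against control, and the mitochondrial ones 0.03, 0.079, -0.0569 and 0.0316. With quantile normalization 3 cytosolic members were higher at 0.5 nM and 9 lower at 0.25 nM, where 30.7% and 30.3% of all genes were, the cytosolic medians were -0.0503 at 0.25 nM and -0.0502 for both doses, and the mitochondrial ones -0.0374 at 0.5 nM, -0.0317 at 0.25 nM, -0.0125 between doses and -0.0684 for both doses. Over genes above the median level only, 0 cytosolic members were higher at 0.5 nM and 3 at 0.25 nM, where fewer members were tested and 22.9% and 22.1% of those genes were higher. With short values kept the mitochondrial median between doses was -1.5e-05. With 1 array left out, 1 to 2 cytosolic members were higher at 0.5 nM, the mitochondrial median ran from -0.086 to -0.0383 at 0.5 nM and from -0.102 to -0.0401 at 0.25 nM, the cytosolic median at 0.25 nM from -0.122 to -0.0384, the mitochondrial median between doses from -0.0116 to 0.0336, and the cytosolic median for both doses from -0.141 to -0.0614. The mitochondrial median between doses was -0.0116 without 0.25 nM replicate 1 and -0.00232 without 0.25 nM replicate 3. For both doses against control, RPL3L ran from -0.0268 without control replicate 3 to 0.139 and RPS27L from -0.02 to 0.026 with 1 array left out. RPS27L was -0.02 without 0.25 nM replicate 2, -0.00272 without control replicate 1 and -0.000877 without control replicate 2. With the replicate number as a block, 3 cytosolic members were higher at 0.5 nM and 8 between doses, where 34.3% and 36.9% of all genes were. Of 119 members, the block ended 2, 4 and 0 calls and added 8, 12 and 10 at 0.5 nM, at 0.25 nM and between doses. The other 909 alternative values were labelled the same. For counts that label allowed a moderate move. With all arrays kept, mitochondrial members at 0.5 nM ran from 13 to 24 higher and from 18 to 29 lower, beside 17 and 27 in the fit used above. Medians and single genes with that label kept their direction and side of the threshold or moved by less than the spread between replicates. The cause of the changes was not tested.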
